A study of Mus musculus with 10 samples.

Results

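The genes described here encode the proteins of the mitochondrial ribosome, taken as every probe set of the array annotated with exactly 1 gene symbol that starts with Mrpl (large subunit) or Mrps (small subunit) followed by a number. The rule uses names alone and no measured value. It found 156 of the 45101 probe sets, for 76 genes, of which 104 probe sets and 47 genes carry an Mrpl name and 52 probe sets and 29 genes an Mrps name. A further 4 probe sets that name a member together with a second gene were left out, so that Mrpl30 and Mrpl53 are not represented. Expression was measured in gastrocnemius muscle of 5 D257A mice and 5 WT mice, all males of 13 months, with 1 Affymetrix Mouse Genome 430 2.0 array per mouse and no pooling. D257A mice are homozygous for a knock-in substitution (Polg D257A/D257A) that impairs proofreading by the polymerase that copies mitochondrial DNA, and WT mice carry the intact gene. The allele is present in every tissue from conception, and the line was of mixed 129Sv/ICR/B6 origin before 4 generations of backcrossing to C57Bl/6J. The question was whether large and small subunit mRNAs differ between D257A and WT muscle.

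Mitochondrial ribosomes translate the small set of proteins that mitochondrial DNA encodes, all of them membrane subunits of the respiratory chain and ATP synthase. Their ribosomal RNA is transcribed inside the organelle, whereas every one of their proteins is encoded in the nucleus, made in the cytosol and imported. Some of these proteins descend from bacterial ribosomal proteins and others were added in the mitochondrial lineage, and skeletal muscle depends on them for the many respiratory chains of its fibres. The array annotation held 0 probe sets for the mitochondrial ribosomal RNAs, so only the protein side was measured.

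The signals are given in scaled units, after each array was multiplied so that its trimmed mean over all probe sets was 500. For each gene the probe set with the highest mean among those naming no other gene stands for it. All 76 genes passed the filter that kept the 22518 brighter probe sets, and all 76 lay in the brightest 25% of the array's probe sets, at mean log2 signals of 9.10 for Mrps11 to 14.27 for Mrpl42. All 10 muscle fibre markers, among them the muscle creatine kinase gene Ckm and the fast myosin genes Myh1 and Myh4, were near the top of the scale, and 0 of the 10 passed the test between genotypes. WT mouse 1-13M stood apart for the genes described here. Its median deviation over the 29 small subunit genes was -0.14 on the log2 scale, against 0.01 to 0.08 in the other WT mice, and the count of members called is given with and without it. Polg itself, where a point mutation leaves the level free to vary, differed by 0.09 (log2, D257A minus WT; limma adjusted p = 0.768), so its level does not check the genotype labels.

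In D257A muscle 5 of the 76 mRNAs with a mitochondrial ribosomal protein name fell and 0 rose. They were Mrpl3, Mrpl12, Mrpl16 and Mrpl28 of the large subunit and Mrps36, which is named as a small subunit gene but whose product is not part of the ribosome. Sorted by structure, without Mrps36, 4 of 49 large subunit genes and 0 of 26 small subunit genes fell. The shares that follow include Mrps36. The count of 5 is 6.58% of the members, beside 3.52% of the 11216 genes tested that fell in D257A muscle and 3.71% that rose (all probe sets, 3.74% and 3.64%), each at a limma p adjusted by Benjamini-Hochberg under 0.05. At an unadjusted p under 0.05, 18 members (23.7%) were lower and 5 (6.58%) higher in D257A mice, beside 11.7% lower and 11.1% higher among all genes. In 6 members (7.89%) every D257A mouse lay below every WT mouse and in 1 (1.32%) above, beside 3.47% and 3.93% of all genes. Each lower share was thus above that of all genes and each higher share below it, and these differences in share were not tested. The genes tested include many that are dimmer than the members, so the background is not matched for brightness. Among the 11259 brightest probe sets, which hold all 76 members, 685 (6.08%) were lower and 777 higher at an adjusted p under 0.05. In that setting 7 of the 76 members were lower, Mrps36 among them, and 1 was higher. Over the 76 genes the median log2 difference was -0.07, with 48 negative and 28 positive, beside a median of -0.01 over all genes. The levels are of whole muscle, in which fewer cells of a type and less RNA per cell cannot be told apart.

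The count of 5 depended on single mice. Leaving out WT mouse 1-13M gave 13 lower and 2 higher, and leaving out WT mouse 3-18M gave 5. The count was 1 when D257A mouse 2-17M, 2-27M or 2-30M was left out, or mouse 2-3M of the WT group. It was 2 when D257A mouse 2-25M, or 1-12M or 2-32M of the WT group, was left out, and 3 when D257A mouse 2-21M was. Mrps36 was called in each of these 10 runs. The calls over all probe sets, 843 lower and 819 higher with all mice, moved as well. They were 1780 and 1648 without mouse 1-13M, 947 and 839 without mouse 3-18M, and 401 to 669 lower in the other runs. The first digit of the mouse number, whose meaning is not given, is 2 in all 5 D257A mice and in 2 WT mice. With that digit as a block 0 members were called (15 lower and 2 higher at an unadjusted p under 0.05), and among mice numbered 2 alone 7 were lower and 0 higher. Over all probe sets the block gave 271 lower and 291 higher, and mice numbered 2 alone gave 858 and 895.

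**Figure D1:**
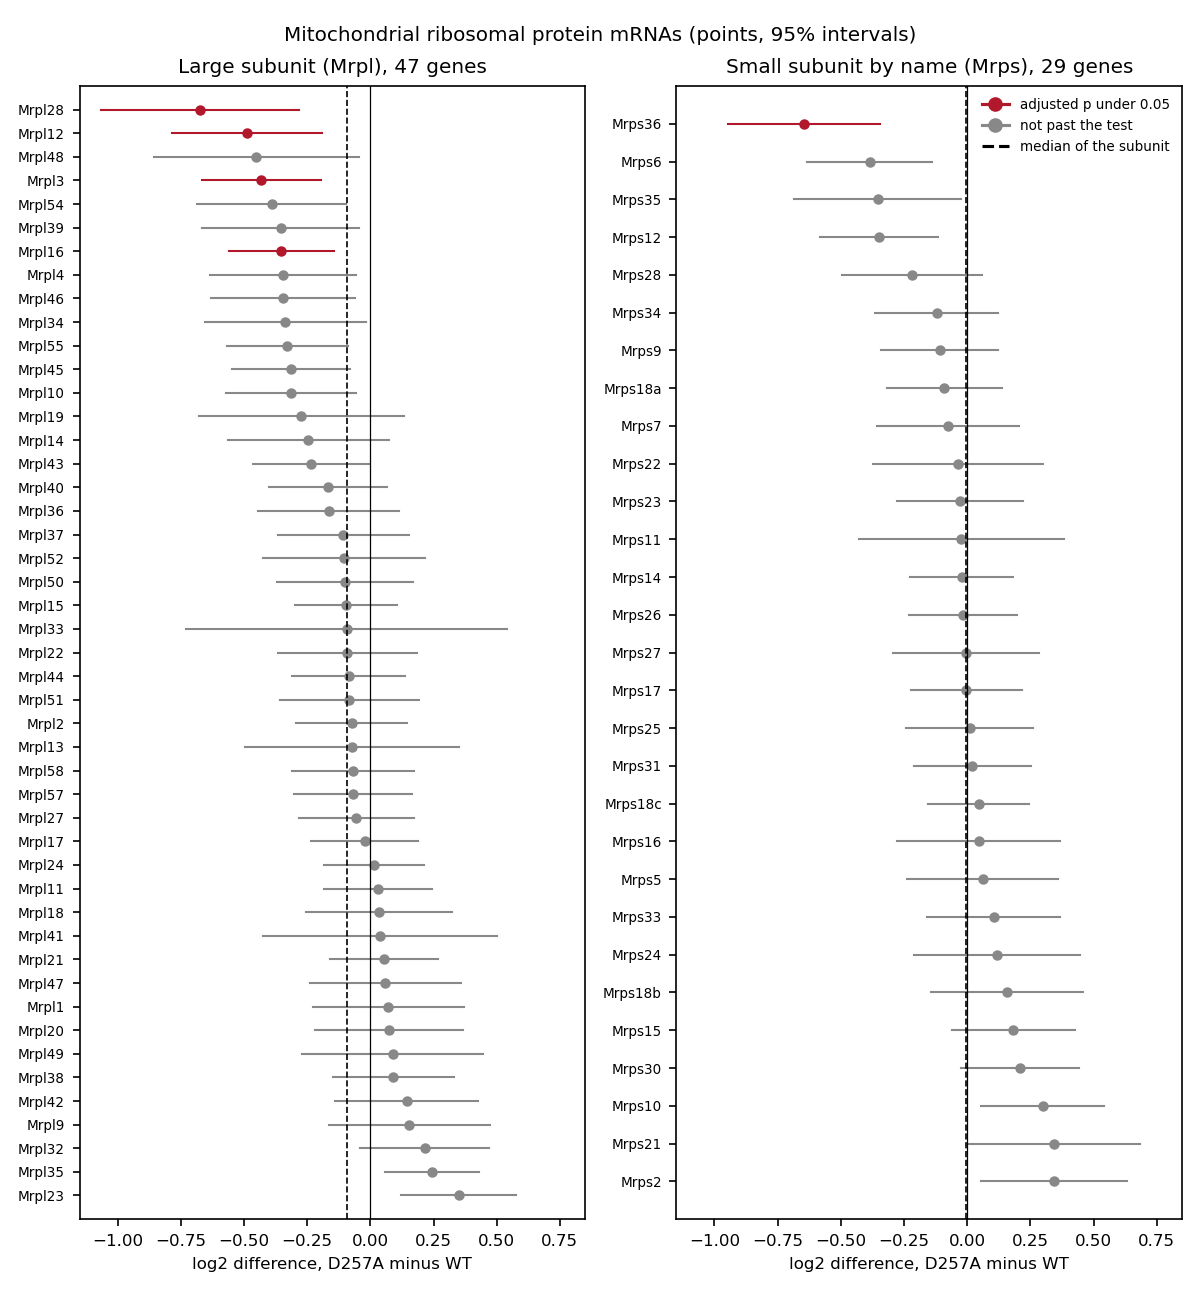
Log2 difference (D257A minus WT, horizontal axis) of each mitochondrial ribosomal protein gene with its 95% interval, large subunit genes on the left and small subunit genes by name on the right. The 5 genes with an adjusted p under 0.05 (red) all lie at the lower end, from -0.68 for Mrpl28 to -0.35 for Mrpl16, and the dashed line is the median of the subunit, -0.09 for large and -0.01 for small.

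The 4 large subunit genes that fell are all homologues of bacterial ribosomal proteins. Mrpl3, whose protein reaches toward the peptidyl transferase centre, had signals of 1627, 1627, 1895, 1507 and 1586 in D257A mice, against 2027, 2385, 2058, 2146 and 2511 in WT mice. All D257A mice lay below all WT mice, and the log2 difference was -0.43 ± 0.11 (SE, n = 5 each; limma adjusted p = 0.0295). A second probe set for Mrpl3 fell by 0.45 (log2) without overlap of the genotypes, and the third, dimmer one differed by -0.34 without passing the test.

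Mrpl16, whose protein lies beside the aminoacyl-tRNA site, showed the tightest D257A group of these 5 genes on the log2 scale, with 3152, 3440, 3377, 3162 and 3162, against 4384, 3549, 4307, 4495 and 4121 in WT mice. The genotypes did not overlap, although the lowest WT mouse, 1-13M, came within a small distance of the highest D257A mouse. The log2 difference was -0.35 ± 0.10 (SE, n = 5 each; limma adjusted p = 0.0411).

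Mrpl12 encodes the stalk protein that recruits translation factors to the ribosome. Its signals were 2290, 3081, 3024, 3071 and 2530 in D257A mice and 4245, 3005, 4497, 4493 and 3468 in WT mice. Only WT mouse 1-13M fell within the D257A range. The log2 difference was -0.49 ± 0.14 (SE, n = 5 each; limma adjusted p = 0.0480).

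Mrpl28, the homologue of bacterial L28, had the largest difference of the 76 genes by the probe sets that stand for them. D257A mice had 1291, 2325, 2067, 1953 and 1905 and WT mice 3458, 2729, 3549, 2036 and 3516. WT mouse 2-32M lay inside the D257A range and the other WT mice above it, with a log2 difference of -0.68 ± 0.18 (SE, n = 5 each; limma adjusted p = 0.0385). The other 2 probe sets for Mrpl28 were also lower in D257A mice, one by -0.54 with no overlap (adjusted p = 0.0251) and one by -0.39, which did not pass the test (adjusted p = 0.127).

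Mrps36 carries a ribosomal name from an early proteomic assignment, but its product is known as a subunit of the 2-oxoglutarate dehydrogenase complex of the citric acid cycle. It had 2038, 2279, 2502, 2662 and 2471 in D257A mice and 4493, 2700, 3650, 3660 and 4420 in WT mice. The genotypes did not overlap, and the log2 difference was -0.65 ± 0.14 (SE, n = 5 each; limma adjusted p = 0.0144), the smallest p of the 76. The study lists Mrps36 among the genes it selected on these same arrays, so its direction is not independent evidence.

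**Figure D2:**
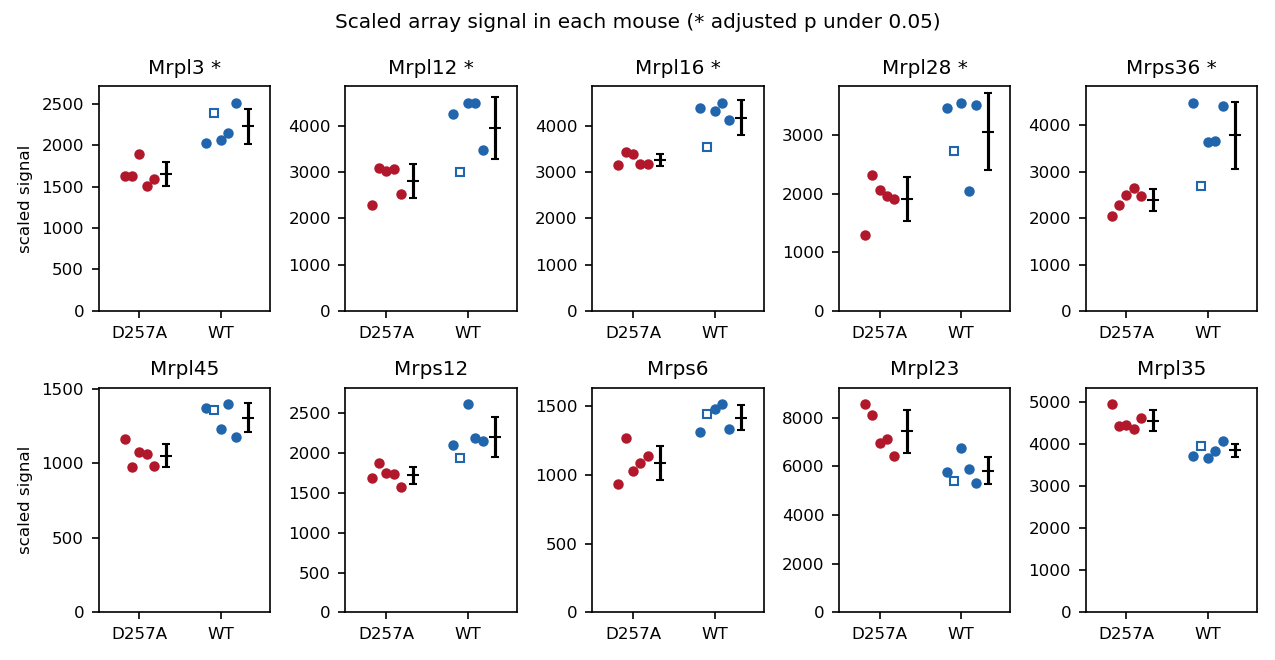
Scaled signal (vertical axis, from 0) in each mouse for the 5 genes that fell (starred) and 5 that did not pass the test, with D257A mice on the left and WT mice on the right of each panel, the mean ± SD beside them, and WT mouse 1-13M as an open square. Mrpl3, Mrpl16 and Mrps36 show no overlap between genotypes, and Mrpl12 overlaps only through WT mouse 1-13M.

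A further 10 large subunit genes had lower signals in D257A mice at an unadjusted p under 0.05 without passing the adjusted test. With those called, this made 14 of 47, beside 11.7% of all genes. Mrpl45, which lies at the exit of the polypeptide tunnel and holds the ribosome to the inner membrane, had 1159, 972, 1075, 1059 and 984 in D257A mice, against 1368, 1354, 1231, 1396 and 1179 in WT mice. The genotypes were separate by a narrow gap, and the log2 difference was -0.31 ± 0.11 (SE, n = 5 each; limma adjusted p = 0.0963). Mrpl48 averaged 1812 ± 249 in D257A muscle and 2544 ± 652 in WT muscle (SD, n = 5 each), a difference of -0.45 (log2; limma adjusted p = 0.165). WT mouse 1-13M, at 1414, was the lowest of all 10 mice for Mrpl48, and the difference without it was -0.65 (limma adjusted p = 0.00191). That mouse was singled out by its values, so this p is not a call. With any other mouse left out Mrpl48 did not pass the test (limma adjusted p of 0.154 to 0.337). The other 2 Mrpl48 probe sets differed by -0.50 and -0.59.

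The remaining 8 were Mrpl54, Mrpl39, Mrpl4, Mrpl46, Mrpl34, Mrpl55, Mrpl10 and Mrpl43, with log2 differences of -0.39 to -0.23 and adjusted p of 0.0894 to 0.205. Mrpl10 encodes the base of the stalk that carries Mrpl12, and it averaged 1126 ± 64.8 in D257A muscle and 1409 ± 192 in WT muscle (SD, n = 5 each). Mrpl4 lines the polypeptide tunnel, and it averaged 1662 ± 181 in D257A muscle and 2128 ± 355 in WT muscle (SD, n = 5 each). For both genes the genotypes overlapped.

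In the other direction, 2 of 47 large subunit genes had higher signals in D257A mice at an unadjusted p under 0.05, beside 11.1% of all genes. Mrpl23, a protein of the tunnel exit, had 8548, 8113, 6967, 7104 and 6405 in D257A mice, against 5777, 5392, 6741, 5880 and 5312 in WT mice. WT mouse 2-3M lay above the lowest D257A mouse, and the log2 difference was 0.35 ± 0.11 (SE, n = 5 each; limma adjusted p = 0.0603).

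Mrpl35 had 4956, 4426, 4453, 4367 and 4630 in D257A mice, against 3728, 3951, 3673, 3841 and 4078 in WT mice. By the probe set that stands for each gene, it was the one member for which every D257A mouse lay above every WT mouse. The log2 difference of Mrpl35 was 0.24 ± 0.09 (SE, n = 5 each; limma adjusted p = 0.106). Its 2 dimmer probe sets differed by -0.14 and 0.00. Mrpl32, whose precursor is cleaved by the mitochondrial m-AAA protease before it joins the ribosome, differed by 0.22 (adjusted p = 0.299), and Mrpl9 by 0.15 (adjusted p = 0.573), or 0.24 without WT mouse 1-13M.

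Mrpl42, the brightest member, averaged 20773 ± 1169 in D257A muscle and 19157 ± 3986 in WT muscle (SD, n = 5 each), with a log2 difference of 0.14 that was 0.01 without WT mouse 1-13M. Mrpl11, which forms part of the site where translation factors bind, averaged 2959 ± 230 and 2898 ± 225 in D257A and WT mice. Mrpl44, which has a fold related to ribonuclease III, averaged 1618 ± 138 in D257A muscle and 1714 ± 90.5 in WT muscle. All 3 had log2 differences within 0.15 of 0. In all, 31 large subunit genes had an unadjusted p of 0.05 or more, with log2 differences between -0.27 (Mrpl19) and 0.22 (Mrpl32).

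Among the 29 genes with an Mrps name, Mrps36 was the only one called. Thus 0 of the 26 genes whose proteins sit in the small subunit passed the test in either direction. Among all genes 3.52% were lower and 3.71% higher. At an unadjusted p under 0.05, 3 of the 26 were lower and 3 higher, close to the 11.7% and 11.1% of all genes. The lower ones began with Mrps6, a protein of the platform, which had 933, 1264, 1025, 1084 and 1134 in D257A mice, against 1311, 1445, 1480, 1514 and 1331 in WT mice. The genotypes were separate, and the log2 difference was -0.39 ± 0.12 (SE, n = 5 each; limma adjusted p = 0.0575).

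Mrps12, the homologue of the bacterial decoding-centre protein S12, had 1680, 1869, 1746, 1733 and 1579 in D257A mice, against 2104, 1942, 2612, 2192 and 2155 in WT mice. Here too no D257A mouse reached the lowest WT mouse, 1-13M, and the log2 difference was -0.35 ± 0.11 (SE, n = 5 each; limma adjusted p = 0.0678). Mrps35 differed by -0.35 (adjusted p = 0.180) with overlap.

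Mrps2, Mrps21 and Mrps10, all homologues of bacterial small subunit proteins, were the 3 on the higher side. Mrps2 averaged 1703 ± 247 in D257A muscle and 1343 ± 205 in WT muscle, Mrps21 6669 ± 596 in D257A muscle and 5385 ± 1378 in WT muscle, and Mrps10 2532 ± 233 in D257A muscle and 2059 ± 216 in WT muscle (SD, n = 5 each). Their log2 differences were 0.34, 0.34 and 0.30, with adjusted p of 0.138, 0.206 and 0.126, and each overlapped between genotypes. For Mrps21 the WT mice were widely spread, from 3514 in mouse 1-13M to 7313 in mouse 3-18M, and the log2 difference was 0.20 without mouse 1-13M and 0.46 without mouse 3-18M.

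Mrps27, an RNA-binding protein of the pentatricopeptide repeat family, was among the members closest to equal means, with 601 ± 93.5 in D257A muscle and 600.4 ± 56.7 in WT muscle (SD, n = 5 each). The other genes with an Mrps name and an unadjusted p of 0.05 or more, 22 in all, had log2 differences between -0.22 (Mrps28) and 0.21 (Mrps30). Mrps30 and Mrps18a are named for the small subunit but sit in the large subunit of the mammalian ribosome. Mrps30 differed by 0.21 (adjusted p = 0.269) and Mrps18a by -0.09 (adjusted p = 0.660).

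Set against each other, the large subunit genes were shifted further down than the small subunit genes by a small amount. The median log2 difference was -0.09 over the 47 large subunit genes, with 32 negative, and -0.01 over the 29 genes with an Mrps name, with 16 negative. With Mrps30 and Mrps18a counted as large and Mrps36 left out, the medians were -0.09 over 49 genes and -0.00 over 26 genes. The typical signal of both groups was alike, with median mean log2 signals of 11.25 for large and 11.15 for small. The standing of the medians against 0 depended on the scaling. With each array centred on its median, the median of all probe sets moved to 0.10, where it had been -0.03, the large subunit median to 0.04 and the small to 0.13, and 1 member was then lower (Mrps36) and 3 higher (Mrpl23, Mrpl35 and Mrps10). That scaling also moved the calls over all probe sets to 418 lower and 1599 higher, where they had been 843 and 819. Relative to all probe sets tested, the large subunit median was -0.06 and the small 0.02 under either scaling. This is so by construction because centring shifts every log2 difference by the same amount. These offsets depended on the reference. They were -0.10 and -0.02 relative to the 11259 brightest probe sets, which hold all members, and -0.01 and 0.08 without a filter. With quantile normalization they were -0.11 and -0.01. The small subunit was thus not above the reference in each setting.

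The difference between the subunits does not depend on a scaling factor when taken within each mouse. For each gene the deviation from its mean over the 10 mice was taken, and the median over the small subunit genes was subtracted from that over the large subunit genes. It was -0.02, -0.03, -0.03, -0.12 and -0.08 in the 5 D257A mice, against 0.04, 0.05, 0.09, 0.05 and 0.03 in the 5 WT mice. Every D257A mouse was below every WT mouse, and mouse 1-13M, at 0.05, was in the middle of the WT range for this measure. The means were -0.06 ± 0.04 in D257A muscle and 0.05 ± 0.02 in WT muscle (SD, n = 5 each), and no test was made because the genes were chosen with results known. With the subunits assigned by structure the genotypes overlapped, since D257A mouse 2-17M stood at 0.00 and WT mouse 3-18M at -0.01, and the means were -0.05 ± 0.04 in D257A muscle and 0.04 ± 0.04 in WT muscle.

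The medians of each subunit by itself overlapped. For the large subunit they lay between -0.15 and 0.02 in D257A mice, and between -0.09 and 0.15 in WT mice, and only mouse 1-13M of the WT mice lay within the D257A range. For the small subunit they lay between -0.07 and 0.05 in D257A mice, and between -0.14 and 0.08 in WT mice.

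**Figure D3:**
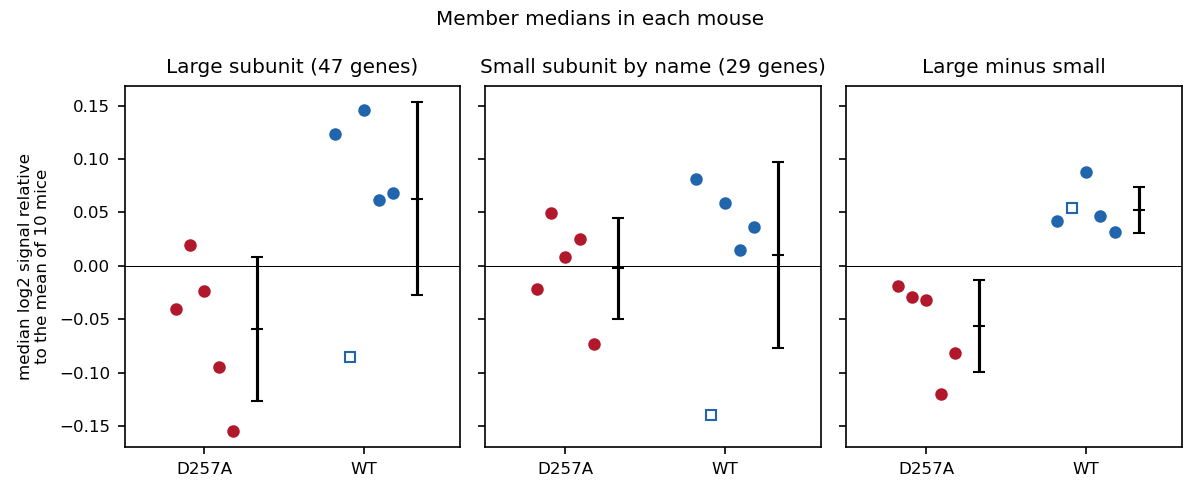
Median log2 signal over the large subunit genes, over the small subunit genes by name, and their difference, relative to the mean of the 10 mice (vertical axis), with 1 point per mouse, D257A left of WT, mean ± SD beside the points, and WT mouse 1-13M as an open square. The difference is below 0 in all 5 D257A mice and above 0 in all 5 WT mice, whereas each subunit alone overlaps, the large one only through mouse 1-13M.

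Sorted by descent, the large subunit genes with a bacterial homologue, 29 by structure, held all 4 large subunit calls and had a median log2 difference of -0.07. The 19 that are specific to mitochondria held 0 calls but had 14 negative differences and a median of -0.10. In the small subunit, 16 genes with a bacterial homologue had a median of 0.02 and 9 mitochondria-specific genes one of -0.02, with 0 calls in each group. Mrps18a and Mrps18b, relatives of bacterial S18, were set in neither class. The calls and the medians ran in different orders, and no difference between these classes was tested.

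Several probe sets read the same mRNA for many members and did not always give the same answer. Of the 156 probe sets 129 were tested, 7 of them were lower and 0 higher in D257A mice. In the 33 genes with several tested probe sets, all had 1 sign in 16 genes (10 negative, 6 positive) and both signs occurred in 17. Mrpl3, Mrpl28, Mrpl44, Mrpl48 and Mrps6 were among those negative throughout. For Mrpl44 the brightest probe set differed by -0.09, and another, almost as bright, by -0.31 with no overlap of the genotypes (adjusted p = 0.0799). The largest difference of any tested member probe set was -0.79, for Mrpl17, with no overlap (limma adjusted p = 0.0669). That probe set was dim, with a mean log2 signal of 6.37, and the brightest Mrpl17 probe set differed by -0.02. The brightest probe sets of Mrpl39 and Mrpl52 differed by -0.35 and -0.10, whereas other probe sets of theirs differed by 0.10 and by 0.24 and 0.28. In the Mrpl52 probe set at 0.28 every D257A mouse lay above every WT mouse, and it did not pass the test (limma adjusted p = 0.163).

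Genes that work with the mitochondrial ribosome were compared from lists of its partners. The 4 tested ribosomal proteins that carry other names (Dap3, Ptcd3, Chchd1 and Gadd45gip1) held 0 calls, with log2 differences of -0.12 to 0.18. Of 16 translation factors, 1 was lower and 0 higher, with a median of -0.15. It was Tufm, the mitochondrial elongation factor that delivers aminoacyl-tRNA, with 1018, 1006, 876, 1026 and 895 in D257A mice, against 1364, 1155, 1333, 1532 and 1198 in WT mice. The genotypes did not overlap, and the log2 difference was -0.45 ± 0.12 (SE, n = 5 each; limma adjusted p = 0.0350). Its exchange factor Tsfm and the elongation factors Gfm1 and Gfm2 differed by -0.65, -0.31 and -0.39 and did not pass the test (adjusted p of 0.118, 0.0981 and 0.0957).

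Of 28 assembly factors 0 were lower and 1 was higher (median -0.03), and of 20 mitochondrial aminoacyl-tRNA synthetases 0 were called (median -0.04). The 11 tested genes of mitochondrial DNA replication and transcription likewise held 0 calls (median -0.01). The assembly factor that rose was Ngrn (neugrin), with 1920, 1801, 1981, 1710 and 2223 in D257A mice, against 1064, 1578, 1257, 1066 and 1041 in WT mice, a log2 difference of 0.70 ± 0.14 (SE, n = 5 each; limma adjusted p = 0.00829). No D257A mouse was as low as any WT mouse.

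Ngrn lies on chromosome 7 with 17 protein-coding genes between it and Polg, the mutated gene. DNA that flanks a targeted allele is inherited with it, and effects of that DNA and of the mutation cannot be told apart here. Among the members, Mrps11 and Mrpl46 lie in the same neighbourhood, with 9 and 10 protein-coding genes between them and Polg. Mrps11 averaged 548 ± 65.8 in D257A muscle and 572 ± 159 in WT muscle, and Mrpl46 882 ± 67.8 in D257A muscle and 1129 ± 174 in WT muscle (SD, n = 5 each). The log2 differences were -0.02 (limma adjusted p = 0.959; -0.17 without WT mouse 1-13M) and -0.34 (adjusted p = 0.132; -0.44 without WT mouse 1-13M). Without that mouse Mrpl46 passed the test, but the mouse was singled out by its values, so this is not a call. With any other mouse left out Mrpl46 did not pass. The next member on that chromosome, Mrpl48, is 185 genes away.

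The proteins of the cytosolic ribosome, which translates nuclear mRNA, are the closest counterpart. Of the 44 tested genes with a probe set of their own, 34 rose and 0 fell in D257A mice, with a median log2 difference of 0.41, where 0 of 76 mitochondrial ribosomal protein genes rose and the median was -0.07. Within the cytosolic ribosome 18 of 22 large subunit genes and 16 of 22 small subunit genes rose, with medians of 0.41 and 0.40. The difference between cytosolic and mitochondrial ribosomal proteins was not tested as such. Complex I subunits, the nuclear-encoded partners of proteins made on mitochondrial ribosomes, had 5 of 32 genes lower and 0 higher, with a median of -0.21. Its called genes with the smallest p were Ndufv1 (-0.38), Ndufs8 (-0.52), Ndufab1 (-0.37) and Ndufs1 (-0.38). Among the members, 5 of 76 were lower, with Mrps36 counted.

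**Figure D4:**
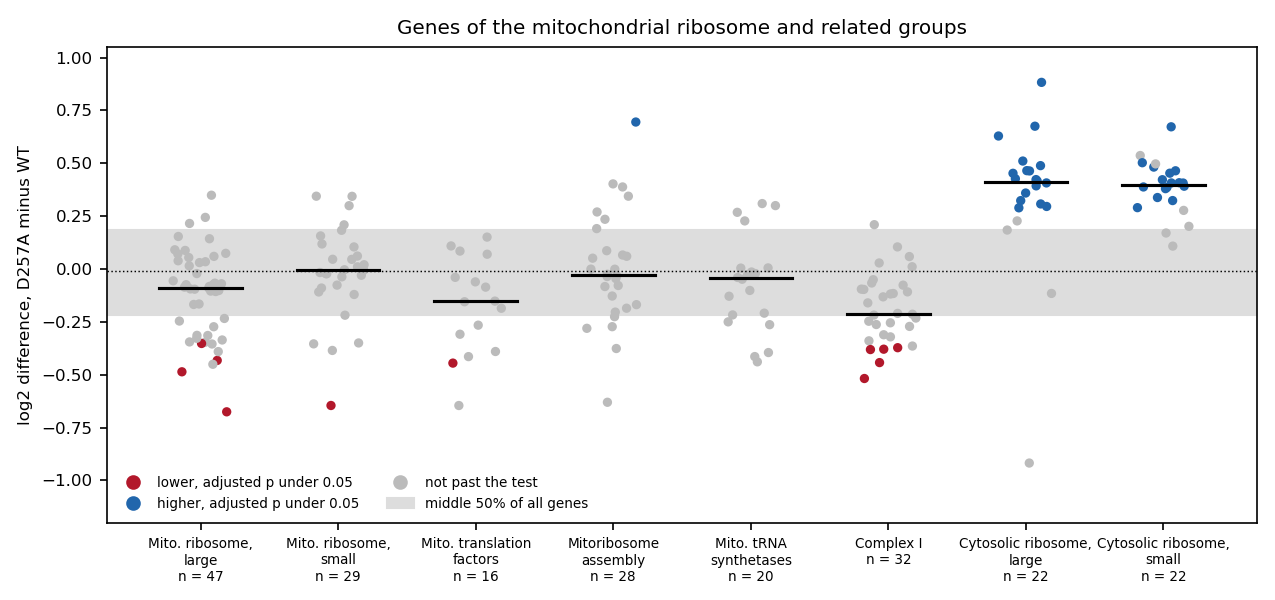
Log2 difference (D257A minus WT, vertical axis) of each tested gene, by group, with the group median as a black line and the middle 50% of all genes as a grey band. The large and small mitochondrial ribosome genes lie mostly within the grey band, whereas the cytosolic ribosome genes of both subunits centre on medians of 0.41 and 0.40.

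Markers of other cells also differed between the genotypes. Of 10 tested macrophage markers 6 were higher and 0 lower in D257A muscle, and the summed signal of the list of 12 lay between 9536 and 14096 in D257A mice, with no overlap with the 7240 to 8414 of WT mice. Of 8 fibroblast markers 4 were lower and 0 higher, with sums of 21574 to 25726 in D257A mice, against 21912 to 36107 in WT mice. The endothelial and adipocyte lists held 1 higher gene each, and the slow fibre and satellite cell lists 0 called genes. The part of these cells in the values of the members was not tested.

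Promoter sequence was compared to see what the members share that their names did not fix. Windows of 300 bases, 250 before to 50 after each RefSeq transcription start (GRCm38.p6), were found for 67 of the 76 genes (73 windows) and were set beside all 32851 windows of the table. Exact matches on either strand were counted. The ETS motif CCGGAAG, bound by GABPA (also called NRF-2), was present in 34.2% of member windows and 8.86% of all windows. The short NRF-1 site TGCGCA, which is part of the full site of this regulator of genes for mitochondrial proteins, was present in 30.1% and 7.76%, and the longer NRF-1 core CGCATGCG, which can overlap it, in 9.59% and 1.87%. The YY1 motif AAGATGGCG was present in 8 of the 73 member windows and in 1.40% of all windows, and the Sp1 GC box GGGCGG in 53.4% of member windows and 35.7% of all windows. The motif TCAAGGTCA of the oestrogen-related receptors was found in 0 member windows and in 0.423% of all windows. Member windows were also richer in G and C, with a median of 58.7% against 52.7% in all windows. The shares were not tested, and a match is a description of letters and not of binding. No window was found for Mrpl4, Mrpl13, Mrpl15, Mrpl19, Mrpl38, Mrpl54, Mrps28, Mrps34 and Mrps35.

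**Figure D5:**
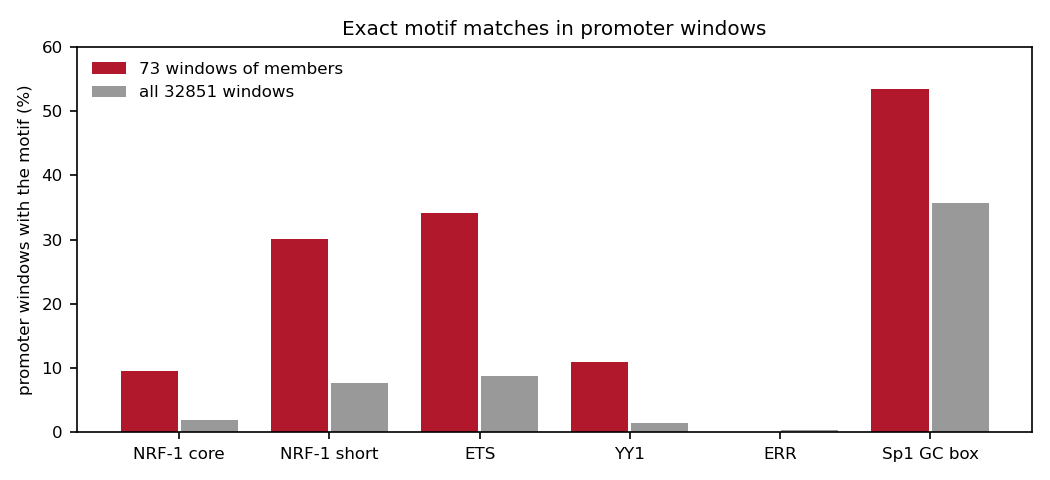
Share of promoter windows (vertical axis, percent) with an exact match on either strand to each of 6 motifs, for the 73 windows of mitochondrial ribosomal protein genes (red, left) and all 32851 windows (grey, right). The ETS motif stands at 34.2% of member windows and 8.86% of all windows, and the short NRF-1 site at 30.1% and 7.76%.

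The 5 genes that fell are too few to compare their matches with those of the other members. Members with an ETS match had a median log2 difference of -0.06 and those without one -0.01, and members with an short NRF-1 site had -0.07 and those without one -0.02. Of the 5 genes that fell, 1 had an ETS match and 0 a short NRF-1 site, beside 25 and 21 of the 67 members with a window. The 100 bases before the start of each of the 5, a part of the window, are given below. Matches to the ETS motif, the short NRF-1 site or the GC box are in capitals (RefSeq, GRCm38.p6, 5′ to 3′ on the strand of the gene).
Mrpl3 (chr9:105053168-105053267, plus strand): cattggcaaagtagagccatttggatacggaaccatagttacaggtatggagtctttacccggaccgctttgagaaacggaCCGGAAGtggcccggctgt
Mrpl12 (chr11:120484537-120484636, plus strand): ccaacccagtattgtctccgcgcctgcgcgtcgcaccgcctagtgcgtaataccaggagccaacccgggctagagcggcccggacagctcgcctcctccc
Mrpl16 (chr19:11770315-11770414, plus strand): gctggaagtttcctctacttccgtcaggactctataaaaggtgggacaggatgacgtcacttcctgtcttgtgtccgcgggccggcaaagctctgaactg
Mrpl28 (chr17:26123403-26123502, plus strand): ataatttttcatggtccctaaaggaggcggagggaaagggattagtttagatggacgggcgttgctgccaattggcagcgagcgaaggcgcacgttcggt
Mrps36 (chr13:100744660-100744759, minus strand): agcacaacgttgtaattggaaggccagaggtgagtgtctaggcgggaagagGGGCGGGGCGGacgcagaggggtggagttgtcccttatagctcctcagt
Mrpl3 has its ETS match close to the start, Mrps36 has 2 overlapping GC boxes, and Mrpl12, Mrpl16 and Mrpl28 show no capitals in this stretch.

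The NRF-1 core was found in 7 members, of which 6 are large subunit genes (13.0% of 46 large subunit windows) and 1 a small subunit gene (3.70% of 27 windows). The core reads the same on both strands. It is shown in capitals, with 10 bases on each side, and Mrpl32 holds it 2 times. The GC box, the ETS motif, the short NRF-1 site and the YY1 motif were each found in more members (34, 25, 21 and 8).
Mrpl9 (chr3:94443299-94443326, plus strand): ggcgcagctgCGCATGCGcggggtcctt
Mrpl17 (chr7:105811080-105811107, minus strand): cgagttactgCGCATGCGtcctctgaga
Mrpl22 (chr11:58171622-58171649, plus strand): cctcggactgCGCATGCGtatagtcagc
Mrpl10 (chr11:97041437-97041464, plus strand): cccagctccaCGCATGCGcatagcggcc
Mrpl32 (chr13:14613106-14613133, minus strand): ttgacccttgCGCATGCGcaagaggggc
Mrpl32 (chr13:14613043-14613070, minus strand): gcggacttaaCGCATGCGctcagcccgc
Mrpl39 (chr16:84735351-84735378, minus strand): aggagaggcgCGCATGCGcccccgcgtg
Mrps18b (chr17:35916647-35916674, minus strand): aacggcccgaCGCATGCGcactgggagc
None of the 7 genes passed the test in these mice. Their log2 differences ran from -0.35 for Mrpl39 and -0.31 for Mrpl10 to 0.15 for Mrpl9 and 0.22 for Mrpl32, with a median of -0.02.

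Mrps11 and Mrpl46, the members near Polg, face away from each other, with 41 bases between their starts. That stretch is shown on the strand of Mrps11, with a GC box in capitals.
Mrps11 (chr7:78783090-78783130, plus strand): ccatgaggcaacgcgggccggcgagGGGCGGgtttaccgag
This GC box is shared by both promoters, whereas the measured log2 differences of the pair were -0.02 for Mrps11 and -0.34 for Mrpl46.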

How the data were processed

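The values analysed are the intensity signals the authors deposited, linear and not logged, with a single value for each probe set of each array (GCOS 1.3 per the labels). How GCOS computed the signal is not stated here. A target signal of 500 is stated, but the columns had 2% trimmed means of 93.4 to 129, so each array was scaled to 500 before log2. The labels give gastrocnemius as the tissue, although 1 protocol line names cochlea. Of 45037 probe sets without controls, the brighter 22518 (mean log2 signal over 6.26, the median) entered the test, in limma 3.58.1 under R 4.3.3 with lmFit and trended eBayes, with Benjamini-Hochberg adjustment over all of them. Of all probe sets 34945 had 1 symbol, 932 several and 9160 none. The 76 member symbols were the same in RefSeq.

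The members and all lists were chosen with earlier results of these data known. Named members were those called, the 4 lowest and 4 highest log2 differences of each subunit, those without overlap of the genotypes, those whose place in the ribosome differs from their name or is a known landmark, Mrps11 and Mrpl46 near Polg, members whose probe sets passed in opposite directions (0 found), the dimmest and the brightest, and up to 4 called genes of a partner list (the cytosolic ones are given as counts). Genes with an unadjusted p under 0.05 and the probe sets of Mrpl17, Mrpl39 and Mrpl52 were named after their values were seen. The alternatives tried were no scaling, centring on the median, quantile normalization, no filter, the brightest 25% of probe sets, an offset of 32, no trend, array weights, the methods' t-test, mice numbered 2, the first digit as a block, averaged probe sets, each probe set by itself, subunits by structure, and each mouse left out. On simulated data of 22518 probe sets with this design, limma recovered 7 of 100 changes of 0.5 and 58 of 100 changes of 1 (log2), with 6 false calls. The changed probe sets were drawn at random from all 22518, dim ones included. They were far fewer than the 843 lower and 819 higher calls of the real data, so these recoveries are not those of the bright members. The 10 arrays limit the precision, and depth has no counterpart here. Tables, motif counts and figures were made with Python 3.11.15, pandas 2.3.3, NumPy 2.4.6, SciPy 1.17.1 and matplotlib 3.10.9.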

Additional observations from a re-analysis of the deposited data

Results flagged for a closer look

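A single mouse stood far from the other mice of its genotype for 6 of the 54 combinations of gene and genotype examined, where chance alone gives about 1 in 20. The measure is the gap to the nearest other mouse as a share of the whole range of the 5 mice, both on the log2 scale, whereas the values given are scaled signals. In D257A mice, Mrps10 was lowest in mouse 2-30M (2116, against 2596 to 2658 in the other D257A mice; share 0.897). Mrps30 was also lowest in mouse 2-30M (1501, share 0.743). Mrps2 was highest in mouse 2-17M (2136, share 0.755), and Mrps27 was highest in mouse 2-21M (766, share 0.799). In WT mice, Mrpl48 was lowest in mouse 1-13M (1414, against 2676 to 3095 in the other WT mice; share 0.814), and Mrps35 was highest in mouse 3-18M (1817, share 0.752).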

How the results depend on the processing

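The count of 5 lower and 0 higher members was 17 lower and 4 higher with array weights, 7 lower and 1 higher among the 11259 brightest probe sets, 1 lower and 3 higher with each array centred on its median, 4 lower and 1 higher with the methods' t-test, 3 lower without scaling, 2 lower without a filter, 1 lower without a mean-variance trend and 0 lower with a block for the first digit of mouse numbers. It ran from 1 to 13 lower and 0 to 2 higher with a mouse left out. The calls over all probe sets moved too: 2110 lower and 1858 higher with array weights, 418 and 1599 with centring, 856 and 356 without scaling, 493 and 540 with the methods' t-test, 599 and 541 without a filter, 271 and 291 with the block, and 401 to 1780 lower with a mouse left out. They were 685 and 777 among the 11259 brightest probe sets, 615 and 515 without a trend, and 858 and 895 among mice numbered 2. The large subunit median of -0.09 became 0.0432 with centring, and the small subunit median of -0.01 became 0.128 with centring, -0.0801 without scaling, -0.0782 with the block and -0.0782 among mice numbered 2. Large minus small was negative under each alternative that could move it, from -0.119 to -0.0612, both ends with a mouse left out. It stayed at -0.0846 by construction without scaling, with centring, without a filter, among the brightest probe sets, without a trend and with the methods' t-test. Those settings shift every log2 difference alike or change only the p. The block and mice numbered 2 gave the same -0.0713, so they are not separate checks. Mrps36 kept its call under 20 of 22 alternatives, Mrpl3 under 11, and Mrpl12, Mrpl16 and Mrpl28 under 9 each, and all 5 stayed negative. The direction changed with centring for Mrps11 (0.111), Mrps27 (0.128), Mrps18a (0.0438) and Mrpl44 (0.0481), with quantile normalization for Mrps27 (0.0067) and without scaling for Mrpl11 (-0.0439). With a mouse left out, the difference ran from -0.165 to 0.0778 for Mrps11, from -0.0966 to 0.0306 for Mrps27 and from -0.0081 to 0.0755 for Mrpl11. The causes were not tested, other than that fewer mice or other probe sets entered where the setting says so. Changes of 0.5 (log2) were mostly missed on simulated data, which held fewer changes and dimmer probe sets and so do not give the recovery for the members. A member without a call is not shown to be unchanged. No paired analysis was possible because the labels give no replicate numbers that the genotypes share.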
